A study of Rattus norvegicus with 12 samples.

Results

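Expression of the nitric oxide synthases and of the enzymes and transporters that handle their substrate arginine was measured on 12 microarrays of rat aortic ring cultures. The 10 genes were taken by symbol from the array's gene annotation, out of 14324 named genes, and 1 probe set stood for each: the synthases Nos2 and Nos3, the cofactor enzyme Gch1, the arginine transporter Slc7a2, the citrulline recycling enzymes Ass1 and Asl, the arginases Arg1 and Arg2, and the dimethylarginine hydrolases Ddah1 and Ddah2. In this culture model a slice of aorta is embedded in a gel, from which new vessels sprout. Aortas of male Fisher 344 rats aged 1 to 2 months were used, with no genetic change named in the labels. The rings lay in collagen or in fibrin gel in serum-free EBM medium, and were left untreated or received 10 ng/ml recombinant rat TNF-alpha, an inflammatory cytokine. RNA was taken on day 2. There were 3 arrays in each of the 4 groups, called fibrin TNF, fibrin control, collagen TNF and collagen control, and each array received RNA pooled from 4 to 6 cultures. The titles call the replicates biological without saying whether they came from different animals, and the p-values therefore reflect variation among these pooled samples only, which may be technical. The RNA came from whole cultures, in which fewer cells of a type and less RNA per cell cannot be told apart.

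Nitric oxide synthases convert arginine into nitric oxide and citrulline and need the cofactor tetrahydrobiopterin. The endothelial enzyme Nos3 makes the small amounts of nitric oxide that relax the vessel wall, while the inducible enzyme Nos2 is switched on at the level of its transcript by inflammatory cytokines in macrophages, smooth muscle cells and other cells. Arginine is imported by cationic amino acid transporters or rebuilt from citrulline by Ass1 and then Asl, is consumed by arginases, and is shielded from competition when Ddah enzymes break down methylated arginines that inhibit the synthases.

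Start site sequences from RefSeq (assembly GRCr8) were matched by symbol for 5 of the 10 genes, namely Nos3, Gch1, Ass1, Asl and Ddah1. Those of Gch1 and Ass1, which were called higher together with Nos2 in 2 comparisons, and that of Nos3, which was not called in any comparison, are shown as the 250 bases before the start site, 5′ to 3′ on the gene's own strand. Capitals mark the motif matches named after them.
Gch1, chr15:22917413-22917662, minus strand: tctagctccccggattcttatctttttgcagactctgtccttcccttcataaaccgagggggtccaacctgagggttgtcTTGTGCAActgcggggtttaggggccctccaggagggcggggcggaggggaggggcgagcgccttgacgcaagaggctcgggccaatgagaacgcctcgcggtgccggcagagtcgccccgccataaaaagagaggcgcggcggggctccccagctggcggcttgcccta
Ass1, chr3:35149480-35149729, plus strand: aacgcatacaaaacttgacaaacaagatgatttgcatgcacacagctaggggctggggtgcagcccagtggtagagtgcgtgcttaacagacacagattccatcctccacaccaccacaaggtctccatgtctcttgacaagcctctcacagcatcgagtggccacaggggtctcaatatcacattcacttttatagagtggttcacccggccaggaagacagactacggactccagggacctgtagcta
Nos3, chr4:11706582-11706831, minus strand: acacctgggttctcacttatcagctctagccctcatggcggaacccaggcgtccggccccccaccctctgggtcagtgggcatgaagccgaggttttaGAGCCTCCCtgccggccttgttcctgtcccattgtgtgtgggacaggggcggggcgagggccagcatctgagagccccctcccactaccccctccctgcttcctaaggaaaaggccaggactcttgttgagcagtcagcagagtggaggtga
In windows of 300 bases, which reach 50 bases past the start site, 5 motifs of regulators of Nos2 were searched on both strands. The kB-like motif GGGANNNTC matched in Nos3 alone of the 5 genes, as GAGCCTCCC on the opposite strand from position -152, and 14.2% of 33469 promoters of that length held a match. A C/EBP motif, TTGCNNAA, matched in Gch1 alone, as TTGTGCAA on the opposite strand from position -170, against 10.6% of promoters. The interferon-gamma element TTCNNNGAA (8.87% of promoters), the interferon response motif TTTCNNTTT (11.8%) and the cyclic AMP element TGACGTCA (1.83%) were not found in these 5 windows. Ass1, Asl and Ddah1 held none of the 5 motifs. A match says only that these letters are present, and the expression data do not test binding there.

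TNF raised Nos2 and Ass1 in both gels, and fibrin without TNF had higher levels of Nos2, Gch1, Ass1 and Slc7a2 than collagen without TNF. Nos3 and both arginases passed in 0 of the 5 comparisons, each of which was fitted with limma over all genes at an adjusted p threshold of 0.05. In collagen, TNF raised 3 of the 10 genes (Nos2, Ass1 and Gch1) and lowered 2 (Ddah2 and Asl), where 3.27% of all genes were called higher and 3.1% lower. In fibrin it raised 2 (Nos2 and Ass1) and lowered 0, against 1.65% and 1.47% of all genes. Untreated fibrin differed from untreated collagen by 4 genes higher (Nos2, Gch1, Ass1 and Slc7a2) and 2 lower (Asl and Ddah2), against 5.35% and 5.19%. With TNF in both gels, 3 were higher in fibrin (Nos2, Gch1 and Slc7a2) and 0 lower, against 4.55% and 3.64%. For the difference of the TNF effect between gels, 1 gene was called, Nos2, with a lower effect in fibrin, where 0.37% of all genes had a higher and 0.866% a lower effect. The same shares apply to the counts of the gene lists below. With such shares a count of 0 does not set a short list apart from all genes. The TNF effect in collagen and the comparison of untreated gels share the collagen control arrays, so their values are not independent of each other. Likewise the TNF effect in fibrin shares the fibrin control arrays with the untreated comparison. In collagen the count of 5 genes was 3 without collagen control replicate 3 and 3 without collagen TNF replicate 2. In fibrin the count of 2 became 3, with Ddah2 lower, when replicate numbers were blocked inside each gel or over all 12 arrays. That count was also 3 after quantile normalization, without the dim genes or with a trended prior. With TNF in both gels the count of 3 became 6 after quantile normalization and 5 without the dim genes or with a trended prior.

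**Figure D1:**
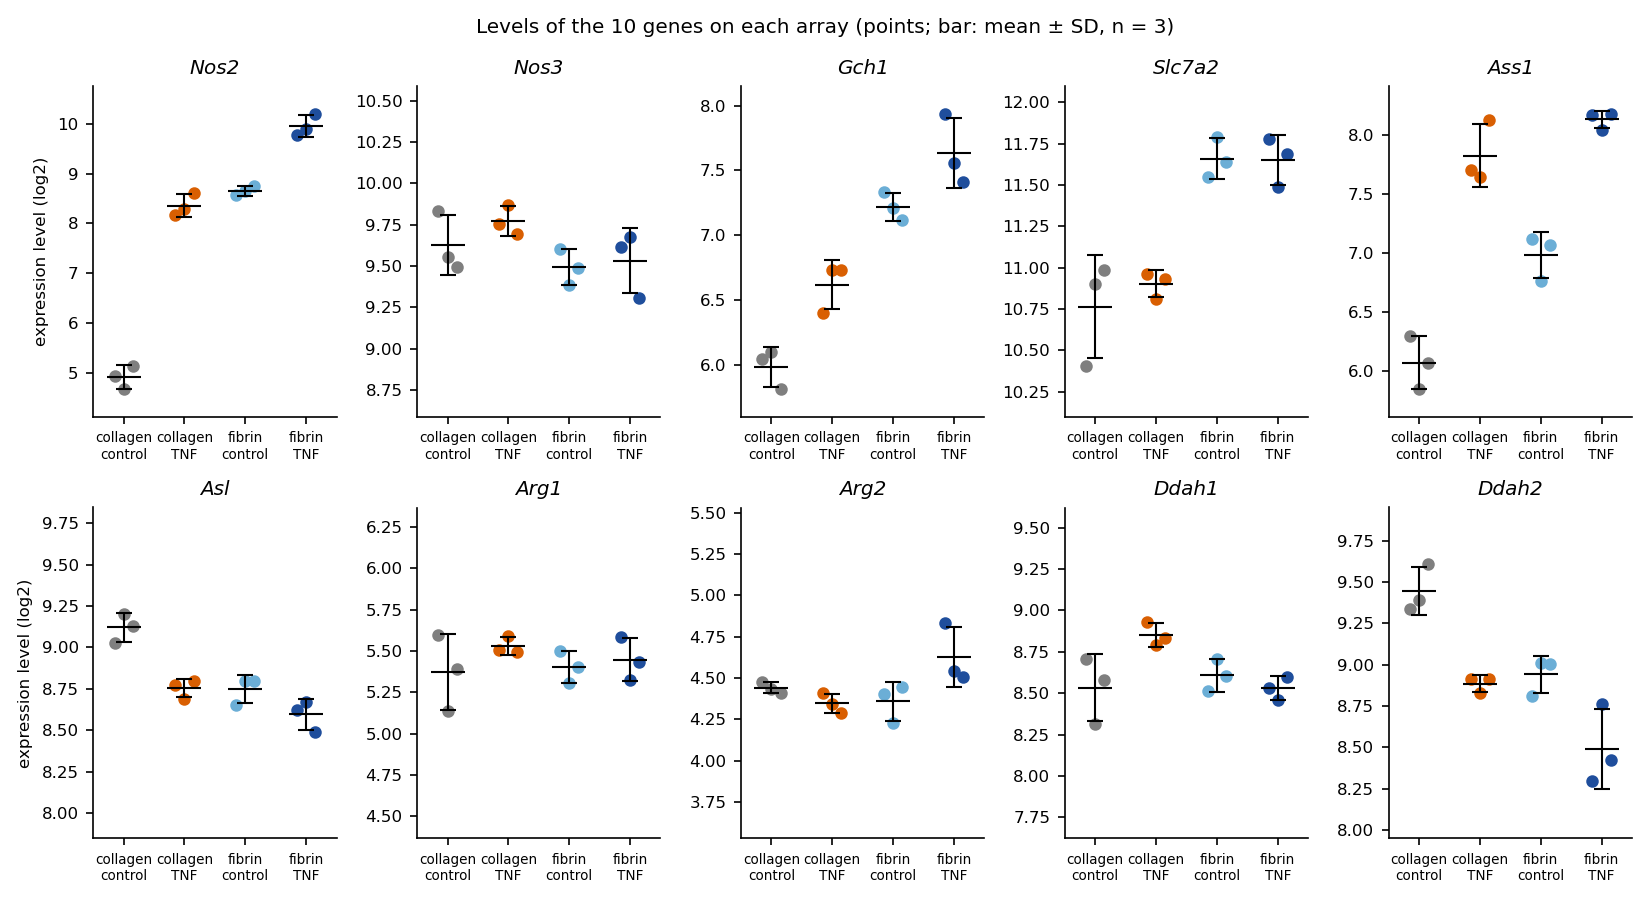
Expression level (log2, vertical axis; the range differs between panels) of the 10 genes on each array, by group; points are arrays, and bars are the mean ± SD of 3 arrays. Nos2 runs from 4.67 to 5.13 in collagen control and from 9.78 to 10.21 in fibrin TNF, while Nos3, Arg1 and Arg2 span less than 1 log2 unit.

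Levels are in log2 units, in which 1 unit is a doubling, and are compared between groups for 1 gene at a time, since probe sets differ in brightness. The deposited values ran from 1.44 to 14.07, and array medians lay between 5.89 and 5.98, slightly higher in collagen than in fibrin arrays. With 3 arrays a group, a difference between groups had a median standard error of 0.09. The 5 comparisons called 912, 448, 1510, 1173 and 177 of all genes. The 767 higher and 743 lower genes in untreated fibrin became 1217 and 474 after median centring, and the 652 and 521 with TNF became 880 and 387. The values hold no true 0. Of the marker lists of the aortic wall, all 17 smooth muscle and 24 macrophage markers, 13 of 15 endothelial and 14 of 15 fibroblast markers lay above the 33.3% of genes of lowest mean level, against 2 of 12 neutrophil and 0 of 10 lymphocyte markers. The endothelial markers Cdh5 and Tek had mean levels of 7.91 to 8.22 and 9.83 to 10.06 over the groups, and the smooth muscle myosin Myh11 had 10.11 to 10.79.

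Nos2, the inducible synthase (gene identifier 24599), had the widest range of the 10 genes. Its levels were 4.94, 4.67 and 5.13 in collagen control and 8.16, 8.30 and 8.61 in collagen TNF. In fibrin they were 8.56, 8.65 and 8.76 without TNF and 9.78, 9.91 and 10.21 with it. The lowest TNF array thus lay above the highest control array in each gel, and every fibrin array lay above every collagen array of the same treatment. TNF raised Nos2 by 3.44 ± 0.14 (SE) in collagen, a 10.9-fold change (adjusted p = 6.34e-08, limma), the fifth highest of 14324 differences. In fibrin the rise was 1.31 ± 0.14, or 2.48-fold (adjusted p = 4.61e-04), the thirteenth highest. Fibrin alone exceeded collagen alone by 3.74 ± 0.14, or 13.4-fold (adjusted p = 1.52e-08). With TNF in both gels the difference was 1.61 ± 0.14 (adjusted p = 1.82e-05). From collagen control to fibrin TNF the means differed by 5.05, or 33.1-fold.

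In the order of group means, collagen TNF (8.35 ± 0.23, SD, n = 3) and fibrin control (8.65 ± 0.10) were neighbours whose arrays overlapped, whereas collagen control (4.91 ± 0.23) and fibrin TNF (9.96 ± 0.22) lay apart from both. Untreated fibrin therefore already held Nos2 at levels that overlapped those of TNF-treated collagen. The TNF effect in fibrin minus that in collagen was -2.13 ± 0.20 (SE, adjusted p = 4.34e-04), the tenth lowest of all genes. The level in untreated fibrin forms part of this difference. All of these Nos2 calls held under every alternative processing run and without any 1 of the 12 arrays.

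Nos3, the endothelial synthase (24600), stayed within a narrow band. Its levels were 9.83, 9.56 and 9.49 in collagen control, 9.75, 9.87 and 9.69 in collagen TNF, 9.60, 9.39 and 9.49 in fibrin control, and 9.61, 9.68 and 9.31 in fibrin TNF. Controls and TNF arrays overlapped in each gel. The TNF difference was 0.14 in collagen (95% interval -0.10 to 0.39, adjusted p = 0.562) and 0.04 in fibrin (-0.21 to 0.28, adjusted p = 0.922). A change of the size seen for Nos2 lies outside these intervals. With TNF, the fibrin arrays all lay below the collagen arrays, by 0.24 on average (difference -0.24 ± 0.11, adjusted p = 0.237). Of 15 endothelial markers, 0 rose and 1 fell with TNF in collagen (Cldn5, a tight junction protein, by 0.62), and their summed level ran from 12.63 to 12.97 in collagen control, 12.60 to 12.75 in collagen TNF, 12.57 to 12.94 in fibrin control and 12.44 to 12.78 in fibrin TNF. Nos1, the neuronal synthase, differed by 0.17 and -0.0039 with TNF in collagen and fibrin and was not called in any comparison.

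**Figure D2:**
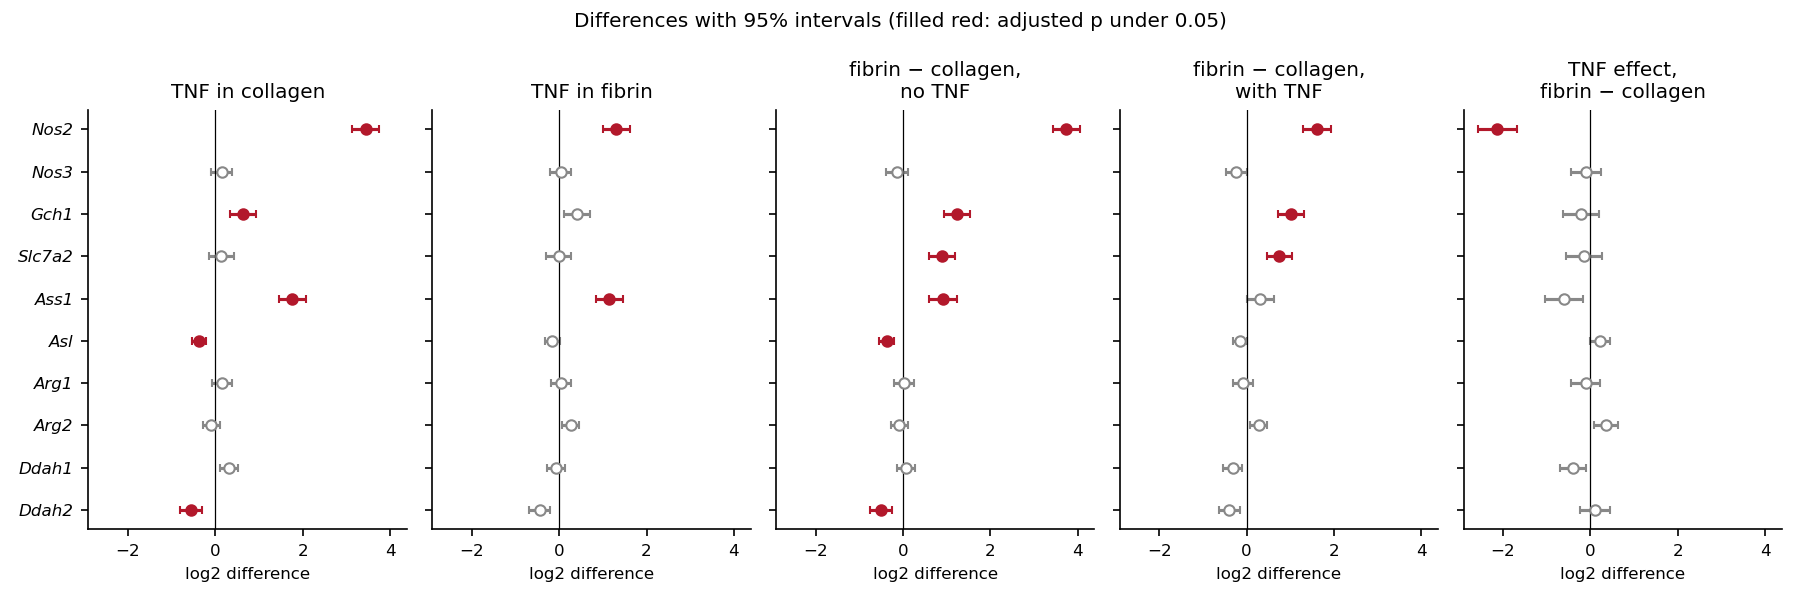
Differences (log2, horizontal axis) of the 10 genes in the 5 comparisons, with 95% intervals of the limma fit; filled red points had an adjusted p under 0.05. Nos2 stands farthest from 0 in the first 4 panels and is the only red point in the last, which shows the TNF effect in fibrin minus that in collagen.

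Gch1, the rate-limiting enzyme of tetrahydrobiopterin synthesis (29244), rose in steps through the 4 groups. It measured 6.05, 6.10 and 5.81 in collagen control, 6.40, 6.73 and 6.73 in collagen TNF, 7.33, 7.21 and 7.12 in fibrin control, and 7.94, 7.56 and 7.41 in fibrin TNF. No group overlapped its neighbour. Fibrin exceeded collagen by 1.23 ± 0.14 without TNF (2.35-fold, adjusted p = 6.12e-05) and by 1.01 ± 0.14 with it (2.02-fold, adjusted p = 4.24e-04). TNF raised it by 0.63 ± 0.14 in collagen (adjusted p = 0.0145), a call lost without collagen control replicate 3 (adjusted p = 0.0700), collagen TNF replicate 2 (0.0665) or collagen TNF replicate 3 (0.0627). The TNF difference in fibrin, 0.42 ± 0.14, did not pass (adjusted p = 0.141). The test of the difference between gels did not pass either (-0.22 ± 0.19, adjusted p = 0.706), so the gels were not shown to differ in it. Unlike Nos2, Gch1 was higher in untreated fibrin than in TNF-treated collagen on every array.

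Of the 4 other measured genes of tetrahydrobiopterin synthesis and recycling, 0 rose, and 1, Gchfr, the feedback regulator that inhibits Gch1, was called lower in each of the first 4 comparisons. Gchfr measured 6.80, 6.77 and 6.51 in collagen control, 6.36, 6.28 and 6.43 in collagen TNF, 6.37, 6.35 and 6.42 in fibrin control, and 6.03, 5.95 and 5.95 in fibrin TNF. Collagen control was thus highest and fibrin TNF lowest, with no overlap of either with the other groups. Gchfr fell with TNF by 0.34 in collagen (adjusted p = 0.0253) and by 0.40 in fibrin (0.0168), and was lower in fibrin by 0.32 without TNF (difference -0.32, adjusted p = 0.0254) and 0.38 with it (difference -0.38, adjusted p = 0.0113). These calls were fragile. The fall in collagen was lost with the replicate block within each gel and with only those groups fitted. It was also lost without collagen control replicate 1 or 2 or collagen TNF replicate 1 or 2 (adjusted p up to 0.109 over these runs). The fall in fibrin was lost without fibrin control replicate 2 or 3 or fibrin TNF replicate 3 (up to 0.0775). The difference with TNF was lost without collagen TNF replicate 3 (0.0569). The difference without TNF was lost after median centring and with only those groups fitted. It was also lost without collagen control replicate 1 or 2 or fibrin control replicate 1 or 2 (up to 0.101 over these runs). The synthesis enzymes Pts and Spr and the recycling enzyme Qdpr were not called, with TNF differences of -0.16, 0.13 and 0.02 in collagen.

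Slc7a2, a cationic amino acid transporter that imports arginine (64554), was higher in fibrin, and its TNF differences did not pass in either gel. Collagen control measured 10.41, 10.90 and 10.99 and collagen TNF 10.96, 10.81 and 10.93. Fibrin control measured 11.55, 11.79 and 11.64 and fibrin TNF 11.78, 11.49 and 11.69. Every fibrin array lay above every collagen array. The gel difference was 0.90 ± 0.13 without TNF (1.86-fold, adjusted p = 7.46e-04) and 0.75 ± 0.13 with it (1.68-fold, adjusted p = 0.00374). The TNF difference was 0.14 in collagen (95% interval -0.15 to 0.43) and -0.0092 in fibrin (-0.30 to 0.28), with adjusted p of 0.662 and 0.984. Collagen control replicate 1 was 0.49 below the next array of its own group, and without it the TNF difference in collagen was -0.04.

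Of 13 other transporters of arginine, citrulline and ornithine or their partners, 1 rose with TNF in collagen and 0 in fibrin. This was Slc7a3, another cationic amino acid transporter, which measured 10.04, 9.54 and 9.60 in collagen control, 10.99, 10.91 and 10.85 in collagen TNF, 11.11, 10.95 and 10.77 in fibrin control, and 11.10, 11.18 and 10.98 in fibrin TNF. Collagen control stood below the other 3 groups, which overlapped. Slc7a3 rose by 1.19 ± 0.12 with TNF in collagen (adjusted p = 8.84e-05) and exceeded its untreated collagen level by 1.22 ± 0.12 in untreated fibrin (adjusted p = 3.05e-05). With TNF it differed by 0.14 in fibrin (adjusted p = 0.656), and the TNF effects differed between gels (-1.05 ± 0.18, adjusted p = 0.0121). The widely expressed Slc7a1 was not called, at 0.23 with TNF in collagen and 0.09 between untreated gels. Slc38a4 was lower in untreated fibrin (-0.38, adjusted p = 0.0140), but not without fibrin control replicate 1 (0.0598).

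Ass1, argininosuccinate synthase (25698), which performs the limiting step of arginine regeneration from citrulline, ranked 29th of all genes for its TNF difference in collagen and 18th in fibrin. It measured 6.30, 5.84 and 6.07 in collagen control and 7.70, 7.65 and 8.13 in collagen TNF. It measured 7.12, 6.76 and 7.07 in fibrin control and 8.17, 8.05 and 8.19 in fibrin TNF. TNF arrays lay above control arrays in both gels without overlap. The rise was 1.76 ± 0.14 in collagen (3.39-fold, adjusted p = 1.04e-05) and 1.15 ± 0.14 in fibrin (2.22-fold, adjusted p = 8.78e-04). Untreated fibrin exceeded untreated collagen by 0.92 ± 0.14 (adjusted p = 0.00104). With TNF the gels differed by 0.31 ± 0.14, with overlapping arrays, and the test did not pass (adjusted p = 0.231). The TNF effects did not pass the test of their difference (-0.61 ± 0.20, adjusted p = 0.201). In contrast to Gch1, Ass1 was higher in TNF-treated collagen than in untreated fibrin on every array. These 3 Ass1 calls held under every alternative and without any 1 array.

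Asl, argininosuccinate lyase (59085), which completes that regeneration, moved in the opposite direction in collagen. It measured 9.03, 9.20 and 9.13 in collagen control, 8.78, 8.69 and 8.80 in collagen TNF, 8.65, 8.80 and 8.80 in fibrin control, and 8.62, 8.67 and 8.49 in fibrin TNF. Collagen control lay above all other arrays. With TNF in collagen it fell by 0.37 on the log2 scale (difference -0.37 ± 0.08 SE, adjusted p = 0.0109), a call lost without collagen control replicate 2 (0.0525) or collagen TNF replicate 2 (0.0546). Untreated fibrin was lower than untreated collagen by the same amount (-0.37 ± 0.08, adjusted p = 0.00643). The TNF difference in fibrin was -0.15 ± 0.08 (adjusted p = 0.364).

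Arginases turn arginine into ornithine and urea. Arg1, the cytosolic form (29221), measured 5.60, 5.14 and 5.39 in collagen control, 5.50, 5.59 and 5.49 in collagen TNF, 5.50, 5.31 and 5.41 in fibrin control, and 5.58, 5.33 and 5.43 in fibrin TNF. All 4 groups overlapped. The largest of its 4 differences between groups was 0.15 ± 0.11, for TNF in collagen (95% interval -0.08 to 0.39, adjusted p = 0.506), and its TNF difference in fibrin was 0.04 (-0.19 to 0.28). Arg2, the mitochondrial form (29215), measured 4.48, 4.43 and 4.41 in collagen control, 4.41, 4.34 and 4.29 in collagen TNF, 4.40, 4.23 and 4.45 in fibrin control, and 4.83, 4.54 and 4.50 in fibrin TNF. The fibrin TNF arrays were the highest, without overlap. Arg2 was the only one of the 10 genes among the 33.3% of genes of lowest mean level. Its differences were 0.27 ± 0.09 for TNF in fibrin (adjusted p = 0.158) and 0.28 ± 0.09 for fibrin against collagen with TNF (adjusted p = 0.0863), and the latter passed after quantile normalization (0.0468) or median centring (0.0432). Its TNF difference in collagen was -0.09 ± 0.09.

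Of 21 genes of ornithine, proline and polyamine metabolism, which use the product of the arginases or share arginine, 0 were called for TNF in either gel, and 0 were higher and 2 lower in fibrin both with and without TNF. With TNF the 2 lower came to 1 without any 1 collagen TNF array or fibrin TNF replicate 1 or 3, and median centring gave 2 higher and 1 lower. Without collagen TNF replicate 2, 1 was higher. The lower ones were led by Gatm, which uses arginine to begin creatine synthesis. It measured 7.0001, 6.79 and 6.96 in collagen control, 6.80, 6.74 and 6.83 in collagen TNF, 6.16, 6.37 and 6.28 in fibrin control, and 6.35, 6.29 and 6.26 in fibrin TNF. All fibrin arrays lay below all collagen arrays, by 0.65 without TNF (difference -0.65 ± 0.08, adjusted p = 9.45e-05) and 0.49 with it (difference -0.49 ± 0.08, adjusted p = 0.00127). The list's median differences were -0.03 and -0.05 with TNF in collagen and fibrin and -0.06 and -0.09 between gels without and with TNF, against 0.0027, 0.012, -0.0094 and -0.0043 for all genes. Odc1, the rate-limiting enzyme of polyamine synthesis, and Oat, which diverts ornithine, were not called, with TNF differences of 0.22 and -0.07 in collagen.

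Ddah1 and Ddah2 break down the methylated arginines that inhibit nitric oxide synthases. Ddah2 (294239) measured 9.34, 9.39 and 9.61 in collagen control, 8.91, 8.83 and 8.91 in collagen TNF, 8.81, 9.010 and 9.003 in fibrin control, and 8.29, 8.76 and 8.42 in fibrin TNF. Collagen control was highest and fibrin TNF lowest, and the groups between them overlapped. With TNF in collagen it fell by 0.56 on the log2 scale (difference -0.56 ± 0.11 SE, adjusted p = 0.0103, and 0.0519 without collagen control replicate 3). Untreated fibrin was lower than untreated collagen (-0.50 ± 0.11, adjusted p = 0.0122, 0.0563 without collagen control replicate 3 and 0.0574 without fibrin control replicate 1). The TNF difference in fibrin was -0.45 ± 0.11 with adjusted p = 0.0538, or 0.0297 in a fit with replicate numbers blocked inside each gel. It also passed after quantile normalization (0.0456), without dim genes (0.0312), with a trended prior (0.0186), with the block over all 12 arrays (0.0412), without fibrin control replicate 1 (0.0494) and without fibrin TNF replicate 2 (-0.58, adjusted p = 0.00633). With TNF in both gels the difference was -0.39 ± 0.11 (adjusted p = 0.0523), and it passed with the replicate block over all 12 arrays (0.0403), after quantile normalization (0.0306), without dim genes (0.0300), with a trended prior (0.0212), and without fibrin TNF replicate 2 (adjusted p = 0.00581) or collagen control replicate 3 (0.0485).

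Ddah1 (64157) differed from Ddah2 in its pattern. It measured 8.71, 8.31 and 8.58 in collagen control, 8.93, 8.79 and 8.83 in collagen TNF, 8.51, 8.71 and 8.60 in fibrin control, and 8.53, 8.46 and 8.60 in fibrin TNF. Collagen TNF lay above the other 3 groups, which overlapped. The TNF difference in collagen was 0.32 ± 0.10 (adjusted p = 0.0759, or 0.0314 without collagen control replicate 1, 0.0431 without dim genes and 0.0371 with a trended prior). With TNF, fibrin was lower by a mean difference of -0.32 ± 0.10 (adjusted p = 0.0612, or 0.0424 and 0.0250 without collagen control replicate 1 or 2, 0.0318 after quantile normalization, 0.0342 without dim genes, 0.0456 with only those groups fitted and 0.0300 with a trended prior). Of 8 other genes of protein arginine methylation and methylarginine breakdown, 0 were called for TNF in either gel, including Prmt1, the main source of asymmetric dimethylarginine, at 0.04 and 0.07.

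Genes known to induce Nos2, or to act between its inducers and its promoter, were compared over the same groups. Of 25 measured, 14 rose and 0 fell with TNF in collagen (9 without collagen control replicate 3), and 7 rose and 0 fell in fibrin (4 without fibrin control replicate 3 or fibrin TNF replicate 2, and 3 when the fibrin arrays were fitted alone). In fibrin against collagen, 12 were higher without TNF and 10 with it, and 0 lower in both. The median differences were 0.32, 0.17, 0.41 and 0.21, against 0.0027, 0.012, -0.0094 and -0.0043 for all genes. Nfkbia, an inhibitor and target of NF-kB, was called higher in the first 4 comparisons (0.70, 0.74, 0.81 and 0.85), as were the NF-kB subunit gene Nfkb2 (0.67, 0.48, 0.60 and 0.41) and the interferon-induced factor Irf1 (0.48, 0.50, 0.63 and 0.65), whose rise in fibrin did not pass when the fibrin arrays were fitted alone (adjusted p = 0.0686). The transcripts of the cytokines Tnf, Ifng and Ifnb1 were not called in any comparison.

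The interleukin-1 genes, whose products induce Nos2, were higher in fibrin than in collagen. Il1b measured 5.35, 6.13 and 5.75 in collagen control, 6.91, 6.40 and 6.87 in collagen TNF, 8.28, 8.03 and 8.09 in fibrin control, and 8.87, 8.54 and 8.42 in fibrin TNF. The 4 groups did not overlap. Il1b was higher in untreated fibrin by 2.39 ± 0.19 (adjusted p = 3.15e-06) and rose with TNF by 0.98 ± 0.19 in collagen (adjusted p = 0.00670), while its TNF difference in fibrin, 0.48 ± 0.19, did not pass (adjusted p = 0.236). For Il1a the values were 2.99 ± 0.22 between untreated gels and 1.88 ± 0.22 and 0.74 ± 0.22 with TNF in collagen and fibrin, the last with adjusted p = 0.0970.

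The TNF effect differed between gels for 2 of these 25 genes, both lower in fibrin, against a median of -0.19. Jak2, the kinase of the interferon-gamma receptor, measured 9.31, 9.55 and 9.40 in collagen control, 10.58, 10.62 and 10.74 in collagen TNF, 10.25, 10.44 and 10.29 in fibrin control, and 10.59, 10.81 and 10.96 in fibrin TNF. Its difference of -0.77 ± 0.14 (adjusted p = 0.0191) was lost without collagen control replicate 3, collagen TNF replicate 3 or fibrin control replicate 2 (adjusted p up to 0.0558). Nfkbiz, a nuclear cofactor of NF-kB, had a difference of -0.56 ± 0.10 (adjusted p = 0.0166), lost without collagen TNF replicate 2 (0.0541). For both genes, as for Nos2, untreated fibrin was already above untreated collagen, by 0.91 and 1.23.

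**Figure D3:**
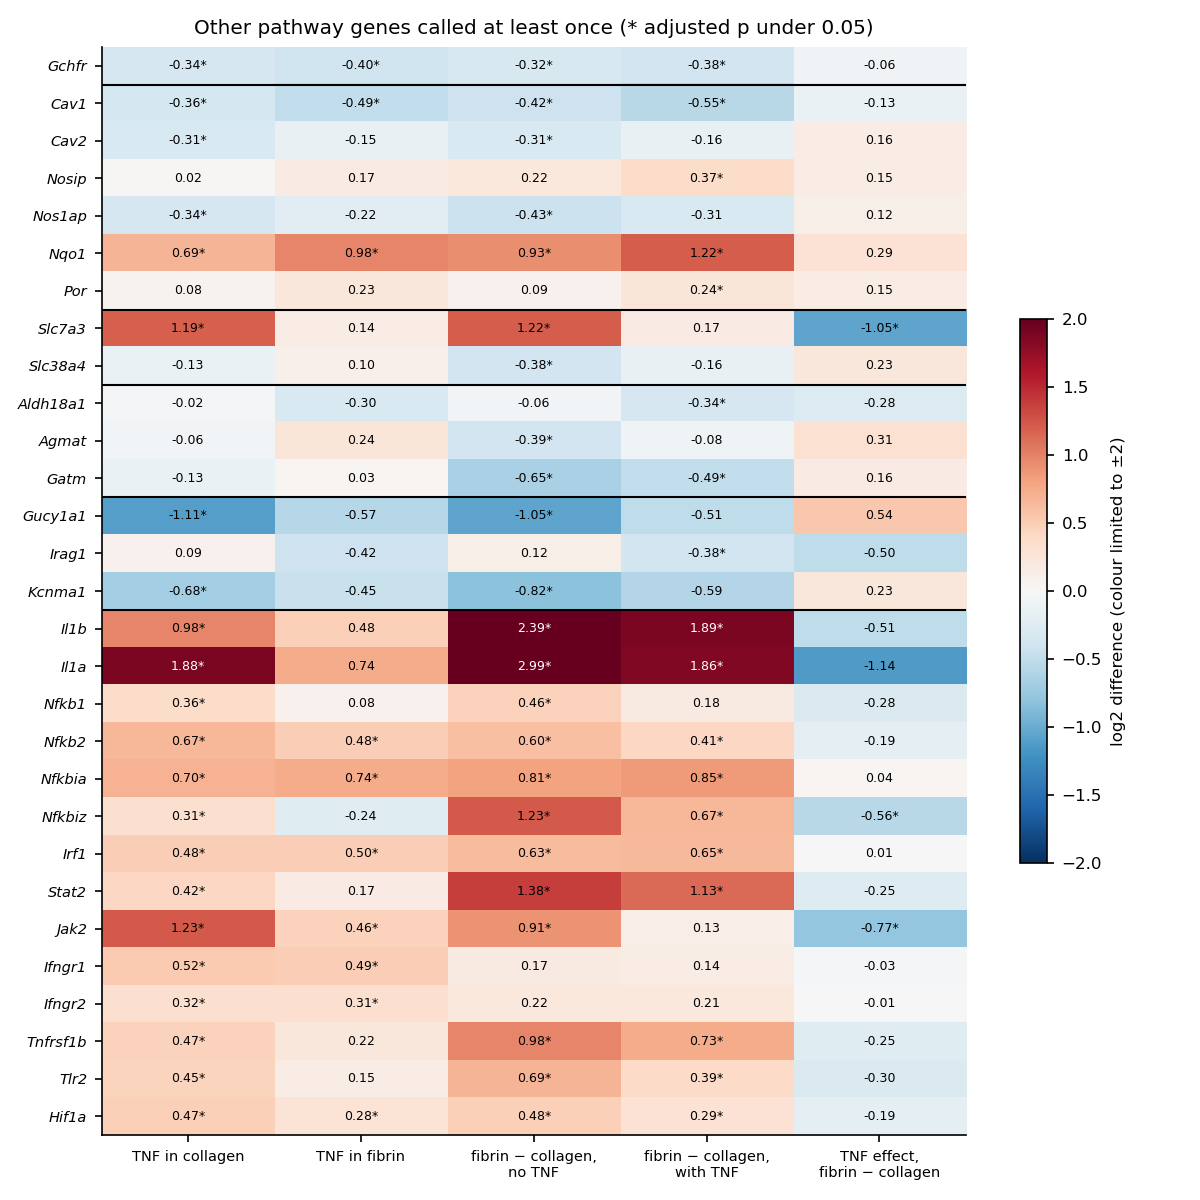
Differences (log2, in the cells and as colour, limited to 2 units either way) of pathway genes that are not among the 10, in the 5 comparisons. Horizontal lines separate lists for cofactor synthesis, synthase partners with redox enzymes, transport, ornithine metabolism, cyclic GMP signalling and Nos2 inducers. Only genes called at least once are drawn. Stars mark an adjusted p under 0.05. The inducers at the bottom are red across the first 4 columns apart from Nfkbiz, at -0.24 with TNF in fibrin.

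Inducers and partners of Arg1, a gene of alternatively activated macrophages, did not move as 1 group. Of 15 measured, 4 rose and 1 fell with TNF in collagen (2 rose without collagen control replicate 3, collagen TNF replicate 1 or collagen TNF replicate 3, and 2 with the replicate block), and 1 rose in fibrin (2 without collagen control replicate 2). Untreated fibrin had 7 higher and 2 lower, which became 4 higher without collagen control replicate 2 or fibrin control replicate 1, and 1 lower without replicate 2 of either group. Il6, a cytokine, was higher in the first 4 comparisons (1.72, 1.68, 2.57 and 2.54), and Il10, an anti-inflammatory cytokine, was higher in fibrin without and with TNF (1.30 and 1.27) and differed by 0.04 and 0.02 with TNF. Mrc1, the mannose receptor of resident macrophages, was lower in fibrin by 1.65 without TNF (difference -1.65 ± 0.19) and 1.87 with it (difference -1.87 ± 0.19). Il4, Il13 and the transcription factor Stat6 were not called in any comparison. Of the 15 genes, 11 remained when the 33.3% of genes of lowest mean level were left out. Il10 was among those left out, so its differences are those of a gene of low mean level. For a gene of low level, a missing call does not show that it failed to respond.

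A list of 15 measured genes held partners of the synthases and also redox enzymes such as Nqo1. Of these 15 genes, 1 rose and 1 fell with TNF in fibrin. In collagen 1 rose (Nqo1, an oxidoreductase) and 3 fell, a count that came to 0 and 0 without collagen TNF replicate 1 or 2, to 0 and 1 without collagen control replicate 1 or 3, to 1 and 1 without collagen control replicate 2 and to 0 and 2 without collagen TNF replicate 3. Cav1, caveolin-1, which binds and holds Nos3 inactive, measured 11.63, 11.52 and 11.74 in collagen control, 11.31, 11.18 and 11.31 in collagen TNF, 11.16, 11.12 and 11.36 in fibrin control, and 10.76, 10.66 and 10.73 in fibrin TNF. Collagen control was highest and fibrin TNF lowest, without overlap. Cav1 fell by 0.49 with TNF in fibrin (adjusted p = 0.00545) and by 0.36 in collagen (0.0210), the latter lost without collagen control replicate 1 or 3 or collagen TNF replicate 1 or 2 (up to 0.0970). Nqo1 rose with TNF in fibrin by 0.98 ± 0.17 (adjusted p = 0.00621) and was higher in fibrin than in collagen by 0.93 ± 0.17 without TNF and 1.22 ± 0.17 with it. Hsp90aa1, a chaperone of the synthases, was not called.

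Downstream of nitric oxide, 17 genes of cyclic GMP signalling were measured, of which 0 were called higher in any comparison. Of all genes, 0.37% to 5.35% were called higher, so a count of 0 does not set these 17 apart. With TNF in collagen 2 were lower (1 without collagen control replicate 2 or 3 or any 1 collagen TNF array) and in fibrin 0, against 3.1% and 1.47% of all genes. Untreated fibrin had 2 lower than untreated collagen, against 5.19%. With TNF in both gels the count of 1 lower was not stable: it came to 0 after median centring and without collagen control replicate 3, any 1 collagen TNF array, fibrin control replicate 3 or fibrin TNF replicate 3, to 2 without collagen control replicate 1 or fibrin control replicate 2, and to 3 without fibrin control replicate 1, after quantile normalization or with the block over all 12 arrays. Gucy1a1, a subunit of soluble guanylate cyclase, the receptor of nitric oxide, measured 8.97, 9.55 and 9.43 in collagen control, 8.21, 8.22 and 8.20 in collagen TNF, 8.03, 8.48 and 8.28 in fibrin control, and 7.50, 7.82 and 7.77 in fibrin TNF. Collagen control was highest and fibrin TNF lowest, while the groups between overlapped. Gucy1a1 fell by 1.11 on the log2 scale with TNF in collagen (difference -1.11 ± 0.15 SE, adjusted p = 5.19e-04) and was lower in untreated fibrin than in untreated collagen (-1.05 ± 0.15, adjusted p = 4.44e-04). Its TNF difference in fibrin, -0.57 ± 0.15, did not pass (adjusted p = 0.0588). The partner subunit Gucy1b1 and the kinase Prkg1 were not called, at -0.20 and 0.11 with TNF in collagen.

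Smooth muscle markers were lower in the 2 comparisons against collagen control in which Gucy1a1, Ddah2, Asl and Cav1 were called lower. Of 17 markers, 0 rose and 7 fell with TNF in collagen, and 8 were lower in untreated fibrin than in untreated collagen (5 without collagen control replicate 2 or fibrin control replicate 1), among them Tagln at -0.83 and -0.81. With TNF in fibrin, and between gels with TNF, 0 were called, with medians of -0.18 and -0.04, while Cav1 was called lower in both. Their summed level ran from 12.92 to 13.13 in collagen control, 12.68 to 12.82 in collagen TNF, 12.68 to 12.92 in fibrin control and 12.65 to 12.80 in fibrin TNF. Of 15 fibroblast markers, 2 rose and 6 fell with TNF in collagen and 0 rose and 5 fell in fibrin (2 without fibrin control replicate 2, 3 without fibrin control replicate 3 or fibrin TNF replicate 3, and 8 with the block over all 12 arrays), with summed levels of 15.72 to 15.85, 15.65 to 15.75, 15.70 to 15.77 and 15.39 to 15.52 in the groups in the same order. The part of these shifts in the lower levels of Asl, Ddah2, Cav1 and Gucy1a1 was not tested.

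Macrophages and neutrophils can express Nos2, so their markers are given beside it. Of 24 macrophage and monocyte markers, 4 rose and 0 fell with TNF in collagen (Fcgr2b, Cd14, Itgam and Lyz2, by 0.41 to 0.89). The median of all 24 was -0.11 there, against 0.0027 for all genes. In fibrin control 12 were lower and 1 higher than in collagen control (median -0.31). The 1 higher became 0 without collagen control replicate 1 or 3 or any 1 fibrin control array. It became 2 without collagen control replicate 2 or after median centring. With TNF in both gels 13 were lower and 1 higher in fibrin (median -0.56). The summed level ran from 13.87 to 14.03 in collagen control, 13.93 to 14.22 in collagen TNF, 13.48 to 13.75 in fibrin control and 13.60 to 13.67 in fibrin TNF. Between untreated gels, Nos2 was higher and this sum lower on every fibrin array. The sum is over whole cultures and does not give the Nos2 level per cell. Of 12 neutrophil markers, 1 (Lcn2, also secreted by other inflamed cells, by 1.32) rose with TNF in collagen, and 2 (Lcn2 by 2.88 and S100a9 by 0.81) were higher in untreated fibrin, the latter not without collagen control replicate 2 (adjusted p up to 0.0536). Their summed level ran from 8.15 to 8.28 in collagen control, 8.46 to 8.62 in collagen TNF, 9.06 to 9.43 in fibrin control and 8.87 to 9.20 in fibrin TNF. Without Lcn2 the sum of the other 11 ran from 7.97 to 8.04, 8.02 to 8.12, 7.97 to 8.28 and 8.05 to 8.22 in the same order. Every fibrin TNF array thus still lay above every collagen control array, but narrowly (lowest 8.045, highest 8.040), while all other pairs of groups overlapped. The median of the 12 markers differed by 0.03 between untreated gels. Of 10 lymphocyte, 7 Schwann cell and 8 adipocyte markers, 0 were called in any comparison, lists too short for a 0 to set them apart from all genes. Of 7 mesothelial markers 1 rose and 1 fell with TNF in collagen and 3 were lower in untreated fibrin (1 without collagen control replicate 2 or 3 or fibrin control replicate 1 or 3). The part of any cell type in the Nos2 levels was not tested.

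**Figure D4:**
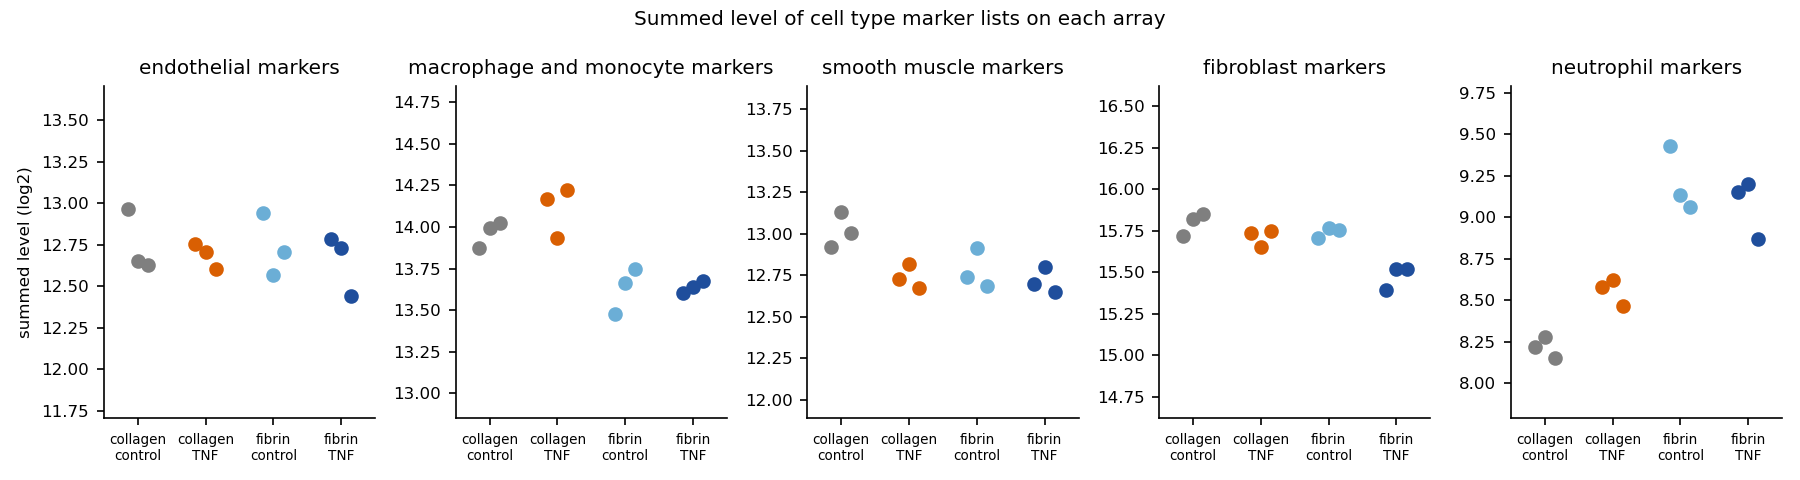
Summed level (log2 of the sum of linear values, vertical axis) of 5 cell type marker lists on each array, by group; each point is 1 array. The macrophage sum is 13.48 to 13.75 in fibrin control, below every collagen array. The neutrophil sum is 8.15 to 8.28 in collagen control, below every array of the other groups. Without Lcn2 the neutrophil sums, which are not drawn, lie between 7.97 and 8.28 and overlap, except that fibrin TNF (lowest 8.045) stays above collagen control (highest 8.040).

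Genes under hypoxic control were also followed, since low oxygen can act on Nos2 through Hif1a. Of 12, 4 rose with TNF in collagen (7 with the block over all 12 arrays) and 3 fell in fibrin, 5 had a lower TNF effect in fibrin (2 without collagen TNF replicate 2 or 3 or fibrin control replicate 2, and 3 without collagen control replicate 1 or 3, fibrin control replicate 3 or fibrin TNF replicate 1 or 3), and their median difference of effects was -0.75 against 0.0084 for all genes. Car9, carbonic anhydrase 9, measured 8.36, 9.09 and 9.86 in fibrin control and 6.28, 6.80 and 6.38 in fibrin TNF, a fall of all TNF arrays below all controls (-2.62 ± 0.33, adjusted p = 8.78e-04), in the comparison in which Nos2 rose. Between gels, 5 of the 12 were higher in untreated fibrin (median 0.26), and 4 were lower in fibrin with TNF (median -0.29). The 5 became 3 when only those groups were fitted, and without collagen control replicate 1 or fibrin control replicate 2 or 3. Hif1a itself rose with TNF by 0.47 in collagen and by 0.28 in fibrin, and was 0.48 higher in untreated fibrin. Its rise in fibrin (adjusted p = 0.0330, limma) was lost in 10 of 22 alternative runs. The part of hypoxia in the Nos2 levels was not tested.

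The genes whose profile over the 12 arrays lay closest to each of 4 of the 10 genes were found by the root mean square difference of log2 levels after each gene's own mean was removed. Genes whose symbol is only a locus number were skipped. For Nos2, whose own standard deviation over the arrays was 1.96, the closest were Ces1f (0.23), the acute-phase gene Orm1 (0.62), the chemokine genes Ccl7 (0.64) and Cxcl1 (0.69), and Il1a (0.70). Ces1f, a carboxylesterase of a family with near-identical copies and so uncertain as a single gene, had group means of 4.50 in collagen control, 7.39 in collagen TNF, 7.83 in fibrin control and 9.26 in fibrin TNF. Its distance from Nos2 was the smallest of the 5, while the other 4 lay between 0.62 and 0.70. For Gch1 (standard deviation 0.67) the closest were Tapbp (0.15), which loads peptides onto class I molecules, then Ube2l6, RT1-CE7, Fam110c and Ier3 (0.16 to 0.18). RT1-CE7 belongs to a class I family with similar copies and is uncertain too. For Ass1 (0.86) they were Itga2, an integrin subunit (0.24), Il2rg, Ptx3, Faah and Adamts4 (0.29 to 0.31), and for Slc7a2 (0.46) they were F2rl2 (0.14), C3ar1, Trim25, Ntaq1 and Znfx1 (0.15 to 0.17). Nos3, Arg1 and Arg2 varied too little over the arrays (standard deviations of 0.17, 0.14 and 0.15) for a list to be read. All of these distances share the same 12 arrays and describe likeness of level only.

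**Figure D5:**
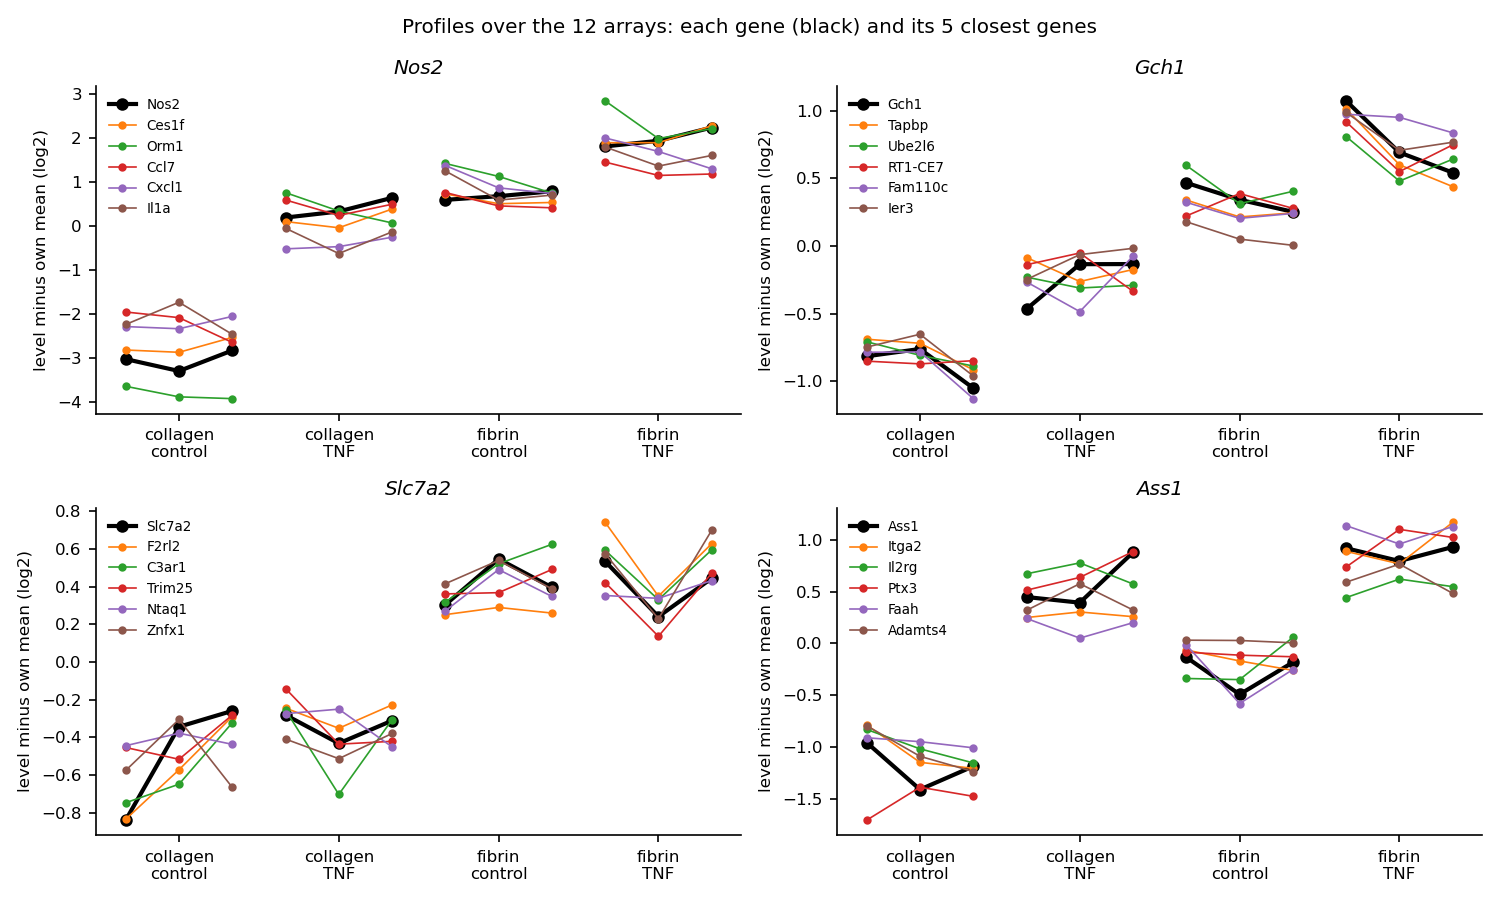
Level minus the gene's own mean over the 12 arrays (log2, vertical axis) of Nos2, Gch1, Slc7a2 and Ass1 (black) and of the 5 closest genes of each (colours); the 3 points of a group are its arrays, joined only to guide the eye. Ces1f follows Nos2 most closely, and Slc7a2 with its closest genes divides by gel, with both collagen groups below and both fibrin groups above the mean.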

How the data were processed

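Aortic ring cultures were measured on 12 Affymetrix whole-transcript arrays from 200 ng of total RNA each, per the labels' protocols. The deposited values are log2 expression levels, a scale taken from their span (1.44 to 14.07). Summarisation and normalization are not given in the sources used here. Limma is named in the submitters' processing notes, with no version. Of 27342 probe sets, 15097 had 1 gene in the probe annotation, 323 had several and 11922 are unnamed here; 15067 of the gene identifiers were found in RefSeq's table. The probe set of highest mean stood for each of 14324 genes, and each of the 10 genes had 1 probe set. Groups and replicate numbers came from the sample titles. One tissue label puts all samples in collagen, fibrin ones included, and was set aside.

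Differences were fitted on the deposited log2 values by limma (version 3.58.1, under R 4.3.3) as 4 group means over the 12 arrays, with moderated two-sided tests, with Benjamini-Hochberg adjustment over all genes of a comparison and a threshold of 0.05. Errors are standard errors of differences and standard deviations of levels. The fit was tested on simulated data. Arrays of the same replicate number deviated together within a gel (collagen control with collagen TNF at r = 0.13, 0.14 and 0.14, fibrin control with fibrin TNF at r = 0.25, 0.14 and 0.16, over genes), so numbers were taken to pair samples there, and a fit with that block was an alternative. Across gels the values for the same number were 0.23, 0.08 and 0.13 between controls and 0.05, 0.03 and 0.14 with TNF, so a link across gels is possible too. The other alternatives were quantile normalization, median centring, leaving out the 33.3% of genes of lowest mean, a robust trended prior, array weights, fits to just the groups compared, all probe sets, the mean of probe sets, and each array left out.

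The 10 genes, the 9 pathway lists and the 9 cell type lists were chosen with earlier results of these data known. All 10 were named throughout. From each pathway list, up to 6 called genes of smallest adjusted p and up to 3 not called could be named per comparison, from each cell type list up to 6 called, and the 5 closest profiles of each of 7 genes. Levels of Cdh5, Tek and Myh11 were shown outside that rule after their values were seen. The neutrophil sum without Lcn2 and the block over all 12 arrays were chosen after seeing the data.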

Additional observations from a re-analysis of the deposited data

Results flagged for a closer look

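For each gene here the response to TNF was unlike in the 2 gels by the fit's own test of that contrast. For Nos2 the TNF effect in fibrin minus that in collagen was -2.13 (adjusted p = 4.34e-04, limma), from effects of 3.44 in collagen and 1.31 in fibrin. For the arginine transporter Slc7a3 it was -1.05 (adjusted p = 0.0121), with effects of 1.19 and 0.14. For Jak2 it was -0.77 (adjusted p = 0.0191), with 1.23 and 0.46, and for Nfkbiz -0.56 (adjusted p = 0.0166), with 0.31 and -0.24. In all 4 the level in untreated fibrin, which was above that in untreated collagen, forms part of the difference.

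Among genes of hypoxia the difference was -3.36 for Car9, -1.1 for the lactate transporter Slc16a3, -0.85 for Pdk1, -0.84 for Ndrg1 and -0.5 for Ldha, with adjusted p from 0.00257 to 0.0309. The effects in collagen and fibrin were 0.75 and -2.62 for Car9, 1.01 and -0.09 for Slc16a3, 0.29 and -0.56 for Pdk1, 0.04 and -0.80 for Ndrg1, and 0.29 and -0.21 for Ldha.

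Among cell type markers the difference was -1.58 for Lcn2 (effects of 1.32 and -0.26), -1.2 for the fibroblast gene Fbln1 (1.03 and -0.17), -0.65 for Pdgfra (0.68 and 0.03), 0.57 for Mfap5 (-1.29 and -0.72) and 0.5 for the smooth muscle gene Cald1 (-0.37 and 0.14), with adjusted p from 0.0102 to 0.0377.

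The differences of Nos2, Slc7a3, Car9, Slc16a3 and Cald1 passed under every alternative run. The other 9 were each lost without single arrays. That of Nfkbiz was lost without collagen TNF replicate 2 (adjusted p = 0.0541) and that of Lcn2 without collagen TNF replicate 1 or 2 (up to 0.0555). Jak2 was lost without collagen control replicate 3, collagen TNF replicate 3 or fibrin control replicate 2 (up to 0.0558), and Pdk1 without collagen TNF replicate 2 or 3 or fibrin control replicate 2 (up to 0.0565). All 3 fibroblast genes were lost without collagen TNF replicate 1 or 2, fibrin control replicate 2 or fibrin TNF replicate 1, and each without further arrays (adjusted p up to 0.0671 for Fbln1, 0.0806 for Mfap5 and 0.102 for Pdgfra). Ndrg1 was lost without any of 8 arrays (up to 0.0721), all but collagen control replicate 2, collagen TNF replicate 1, fibrin control replicate 1 and fibrin TNF replicate 2. Ldha was lost without any array but fibrin TNF replicate 2 (up to 0.0854) and with the replicate block within each gel (0.0714).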

How the results depend on the processing

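Calls for Nos2 in all 5 comparisons, for Ass1 in 3, for Slc7a2 and Gch1 between gels and for Asl between untreated gels held under every alternative run. Of the values of the 10 genes under the alternatives, 1018 kept direction and side of the threshold, 24 newly passed it, 8 lost it and 15, none of them called, changed sign. With TNF in both gels the count of the 10 genes called went from 3 to 6 after quantile normalization, and to 5 without dim genes or with a trended prior. All-gene counts moved to 230 for TNF in fibrin with only those groups fitted, and, for the difference of TNF effects, to 294 without dim genes, 339 with a trended prior and 276 with a replicate block over all 12 arrays, which was chosen after seeing the data. With each array left out, the counts of the 10 genes ran from 3 to 6, 2 to 3, 5 to 6, 3 to 4 and 1 to 1 in the 5 comparisons in the order given, and those of all genes from 568 to 940, 237 to 539, 1071 to 1573, 727 to 1196 and 103 to 246. The differences whose sign changed ran, over the arrays left out, from -0.040 to 0.25 for Slc7a2 with TNF in collagen. With TNF in fibrin they ran from -0.034 to 0.15 for Nos3 (-0.015 and -0.0023 were the other negative values), from -0.024 to 0.10 for Arg1 (also -0.0048) and from -0.073 to 0.073 for Slc7a2 (also 0.056). Between untreated gels they ran from -0.090 to 0.14 for Arg1 (also -0.019) and from -0.037 to 0.16 for Ddah1. For the difference of TNF effects they ran from -0.21 to 0.0064 for Nos3, -0.22 to 0.0082 for Arg1, -0.26 to 0.030 for Slc7a2 and -0.025 to 0.21 for Ddah2. The cause was not tested. The replicate block within each gel changed 1 call of the 10 genes, Ddah2 with TNF in fibrin (adjusted p = 0.0297). That block cannot be fitted for comparisons between gels, whose pairing across gels is not given. Each of the 10 genes had 1 probe set, so another one could not be tried. Probe brightness and 3 arrays a group limit small differences, such as that of Arg2.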
